A study of Macaca mulatta with 26 samples.

Results

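Circular RNAs (circRNAs) spliced from 3 or 4 exons were examined in vastus lateralis, a thigh muscle, of rhesus monkeys (Macaca mulatta). A circRNA was taken as 1 back-splice junction with 1 exon structure, and it was kept when its junction reads, summed over the 24 libraries of lower sequencing depth, came to at least 2. This gave 2873 circRNAs, of which 1732 had 3 exons and 1141 had 4 exons, out of 8140 circRNAs of every type (35.3%) and 7771 exonic circRNAs (37.0%). Each of the 24 libraries came from a different monkey of ongoing ageing studies, with no treatment named in the labels. The Young group held 6 monkeys aged 0.003 to 6 years, the Middle-aged group 11 monkeys aged 11.3 to 16.93 years, and the Old group 7 monkeys aged 25.7 to 40.9 years. Another 2 libraries, labelled with the ages 0.005 and 40.1 years, were sequenced in depth, to about 5 times as many reads. Total RNA was digested with RNase R, an exonuclease that degrades linear RNA, before every library was made. Strain, sex and other traits of the monkeys were not used here, and the muscle samples were whole tissue, so that fewer cells of a type and less RNA per cell cannot be told apart.

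A circRNA arises when the 5′ splice site at the end of an exon is joined backwards to the 3′ splice site at the start of the same or an earlier exon. The introns between the enclosed exons are normally removed, and the closed ring has no free ends for exonucleases to attack. Back-splicing is known to be favoured by long introns on both sides of the ring, particularly where inverted repeats can pair across them. Muscle and brain are tissues in which circRNAs are readily found, and some circRNAs bind microRNAs or proteins.

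Depth was low for single molecules. The libraries held 1996 to 7918 junction reads in the Young group, 822 to 11561 in the Middle-aged group and 1317 to 8144 in the Old group. A count of 0 in a library allows up to 3 reads, which was 0.0259% to 0.365% of its junction reads, and such limits cover counting error only. The files named the host mostly by transcripts assembled separately in each library. On an Ensembl transcript in at least 1 library were 1681 of the 2873 circRNAs (58.5%). A gene symbol could be paired with 86 of the 2873 (2.99%), in 43 genes, all on chromosomes 1, 10, 11 and 12. The pairing needed a transcript that a supplement of the study links to a gene, so hosts on other chromosomes went unnamed. Of 15 marker genes listed for muscle fibres and other cells of muscle, 1, the fibre gene MYBPC1, was among these hosts, so the tissue label could not be checked further.

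The 3- and 4-exon circRNAs held 31673 of the 99083 junction reads of the 24 libraries (32.0%). Most were rare, with a median of 3 reads in 3 libraries. With exactly 2 reads 972 of them lay just inside the minimum, and a further 3382 circRNAs with 3 or 4 exons and exactly 1 read lay just outside it. At least 10 reads were counted for 582 circRNAs and at least 100 reads for 44. The 145 with the most reads held 50% of the reads, and the 10 with the most reads held 15.2%. In all 24 libraries 3 were listed, in 12 or more libraries 163, and in a single library 394.

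The 3 circRNAs listed in every library were mmu_circ_010973, mmu_circ_009828 and mmu_circ_009737, named by the identifiers of the study. Levels are given as reads per 1000 junction reads of a library.

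The most abundant was mmu_circ_010973 at chr2:189036369-189048246 (rheMac2, plus strand), a ring of 247 nt made of exons of 68, 66 and 113 nt. It was listed on an Ensembl transcript, ENSMMUT00000045193, and had 1128 reads. Its level was 8.35 to 14.3 with a median of 11.3 in the Young group, 7.04 to 13.1 with a median of 10.7 in the Middle-aged group, and 7.59 to 18.1 with a median of 12.1 in the Old group. The 3 ranges overlapped, and the highest value, 18.1, was in Old 4. Over the 24 libraries the level was 11.03 ± 2.74 (SD, n = 24), a spread of 24.9% of the mean, which was the smallest among the 44 circRNAs with at least 100 reads. Reads counted at random at these depths would alone give 19.1%.

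The circRNA mmu_circ_009828 at chr18:72438949-72465599 (plus strand, ENSMMUT00000030665) was a 220-nt ring of exons of 109, 59 and 52 nt with 873 reads. Its level was 3.51 to 10.7 (median 7.95) in the Young group, 6.09 to 23.1 (median 7.73) in the Middle-aged group and 5.92 to 12.1 (median 8.89) in the Old group. The value of 23.1 came from Middle-aged 10, the library with the fewest junction reads, where it rested on 19 reads. The groups overlapped.

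The third, mmu_circ_009737 at chr18:52215733-52236337 (plus strand), had 4 exons of 182, 177, 163 and 282 nt, together 804 nt, and 268 reads. Its median level was 3.09 in the Young, 3.01 in the Middle-aged and 2.82 in the Old group, within an overall range of 1.08 to 6.90.

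The other 7 of the 10 most abundant were missing from at least 1 library. They were mmu_circ_015458 (chr6:134285266-134289462, 535 reads), mmu_circ_015243 (chr6:119937864-119949709, 416 reads), mmu_circ_016162 (chr6:75664580-75683702, 4 exons, 362 reads), mmu_circ_008966 (chr17:20763128-20771180, 403 reads), mmu_circ_018901 (chr9:138316-178337, 235 reads), mmu_circ_012245 (chr3:10250156-10255475, 299 reads) and mmu_circ_003308 (chr11:22188394-22201342, 278 reads). Their mean levels fell from 5.32 for mmu_circ_015458 to 2.68 for mmu_circ_003308. Neighbours in this order from rank 3 down differed by less than 1 SD over the libraries, which was 1.27 to 3.17. Rank 1 was above ranks 3 to 10 in 21 of 24 libraries, rank 2 was above them in 15, and rank 1 was above rank 2 in 19. In the plot of levels by library the dots of the 3 age groups lie over each other for each circRNA.

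**Figure D1:**
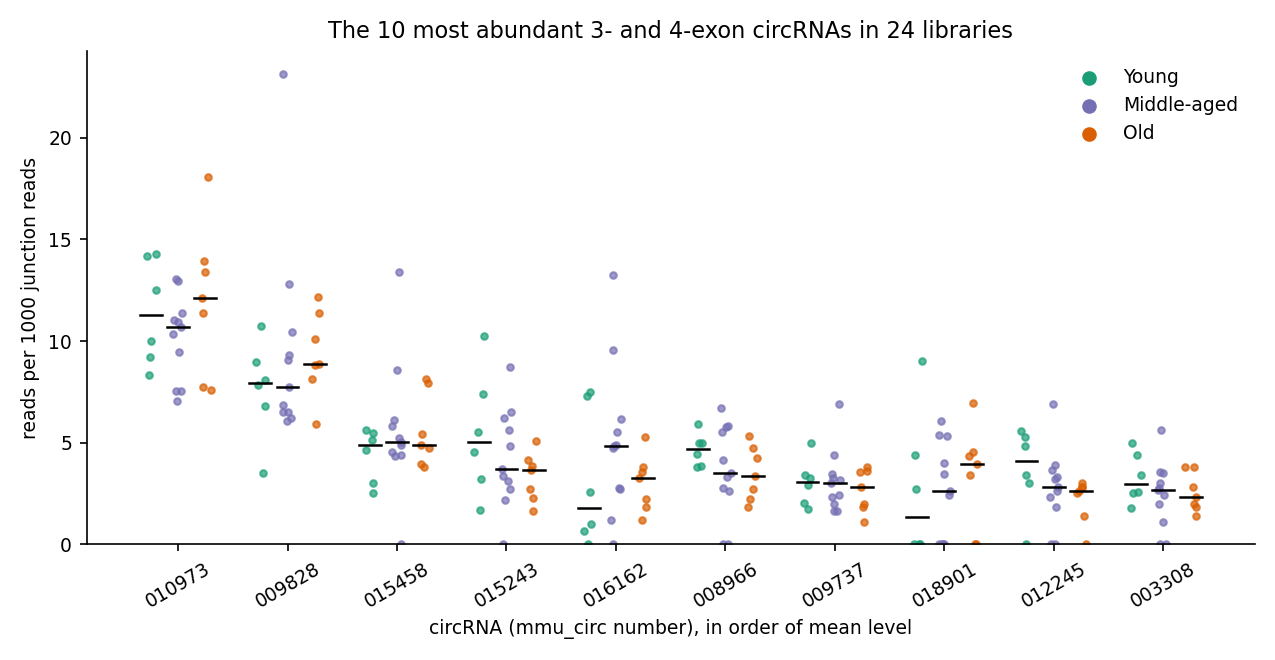
Levels of the 10 most abundant 3- and 4-exon circRNAs, in reads per 1000 junction reads, with 1 dot per library, coloured by age group, and a black bar at the median of the group. The first 2 circRNAs have means of 11.03 and 9.001, the next 8 lie between 5.32 and 2.68, and the age groups overlap for every circRNA.

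Of the 3-exon circRNAs, the median spliced length was 361 nt and the median genomic span 5751 nt, and of the 4-exon circRNAs 476 nt and 9235 nt. Together they ranged from 148 to 6236 nt in length, with a median of 404 nt, and from 380 to 347878 nt in span, with a median of 7098 nt. The longest ring, at chr13:73767228-73775113 (plus strand), held exons of 2600, 3502 and 134 nt and had 7 reads in 4 libraries. The shortest, at chr11:27956518-27958302 (plus strand), held exons of 57, 61 and 30 nt and had 2 reads. The widest span, chr6:104354939-104702816 (minus strand), enclosed introns of 145638, 38318 and 163474 nt around 448 nt of exon, with 1 read in each of 2 libraries. The narrowest, chr6:136021407-136021786 (plus strand), enclosed introns of 78 and 86 nt and had 12 reads in 4 libraries. Each extreme thus rested on few reads, unlike the abundant circRNAs, whose lengths ran from 220 to 804 nt.

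Exons inside the ring were of similar size at every position. In 3-exon circRNAs the median exon was 118, 109 and 119 nt from first to last, and in 4-exon circRNAs 116, 106, 108 and 122 nt, so that the middle exons had the smaller medians in both. Enclosed introns had medians of 2042 to 2281.5 nt at every position, whereas the flanking introns had medians of 6544 nt upstream and 5907.5 nt downstream of 3-exon circRNAs, and 6838 and 6915.5 nt for 4-exon circRNAs. For 2433 of 2863 circRNAs (85.0%) the mean flanking intron was longer than the mean enclosed intron, with a median ratio of 2.75. This share was 85.2% both for circRNAs of 2 exons and for those of 5 to 7 exons. Exon lengths that added up to a multiple of 3 were found in 1062 circRNAs (37.0%, 95% Wilson interval 35.2% to 38.7%), next to 36.7% of 2-exon and 35.97% of 5- to 7-exon circRNAs.

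**Figure D2:**
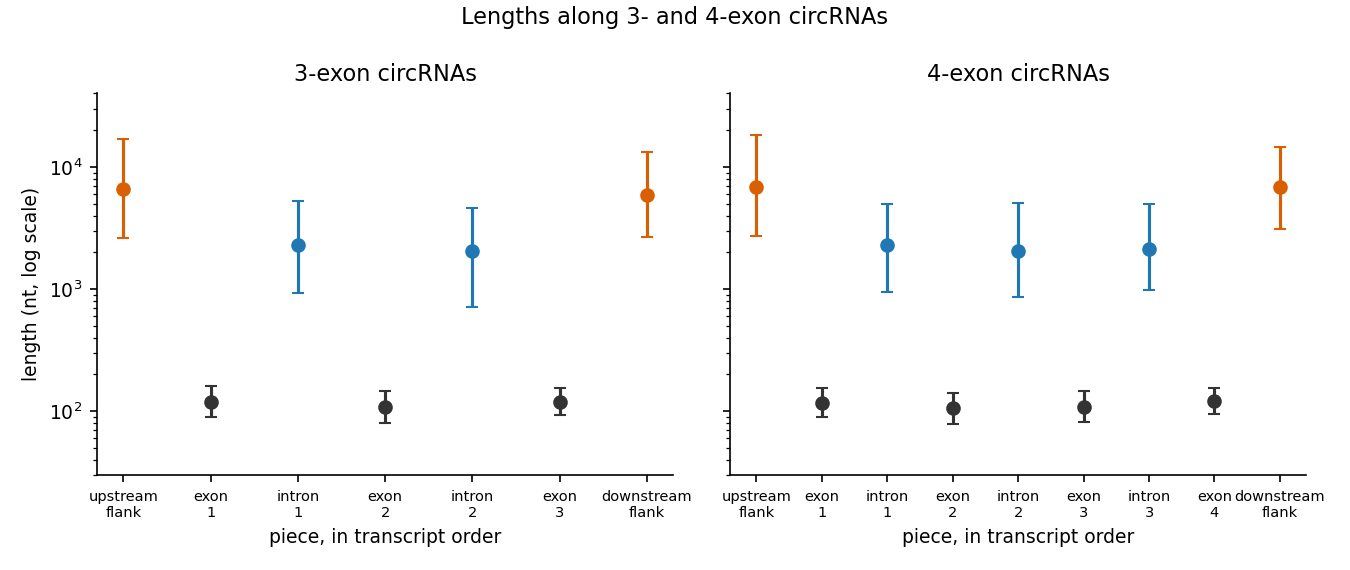
Median length of each exon (black), enclosed intron (blue) and flanking intron (orange) in transcript order, in nt on a log scale, with bars from the lower to the upper quartile, for 1732 3-exon and 1141 4-exon circRNAs. Median exons lie between 106 and 122 nt, enclosed introns between 2042 and 2281.5 nt and flanking introns between 5907.5 and 6915.5 nt.

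To ask where the 3- and 4-exon circRNAs stood among exonic circRNAs, 4 measures were taken per library and compared with circRNAs of 2 exons and of 5 to 7 exons in the same library (100000 sign flips over the 24 libraries, two-sided, Benjamini-Hochberg adjustment over 8 tests, smallest unadjusted p they can give 2e-05). Libraries list many of the same circRNAs, so these p-values measure how steady a difference was between libraries.

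The median flanking intron of the 3- and 4-exon circRNAs was 9627 ± 990 nt (SD, n = 24 libraries), longer than the 6542 ± 418 nt of 2-exon circRNAs in 24 of 24 libraries (adjusted p = 5.3e-05) and shorter than the 10637 ± 839 nt of 5- to 7-exon circRNAs in 23 of 24 (adjusted p = 5.3e-05). The second difference turned when each circRNA was weighted by its reads, to 236.5 nt longer with an adjusted p of 0.541. The plot of flanking introns by class shows each library rising from 2 to 3 or 4 exons.

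**Figure D3:**
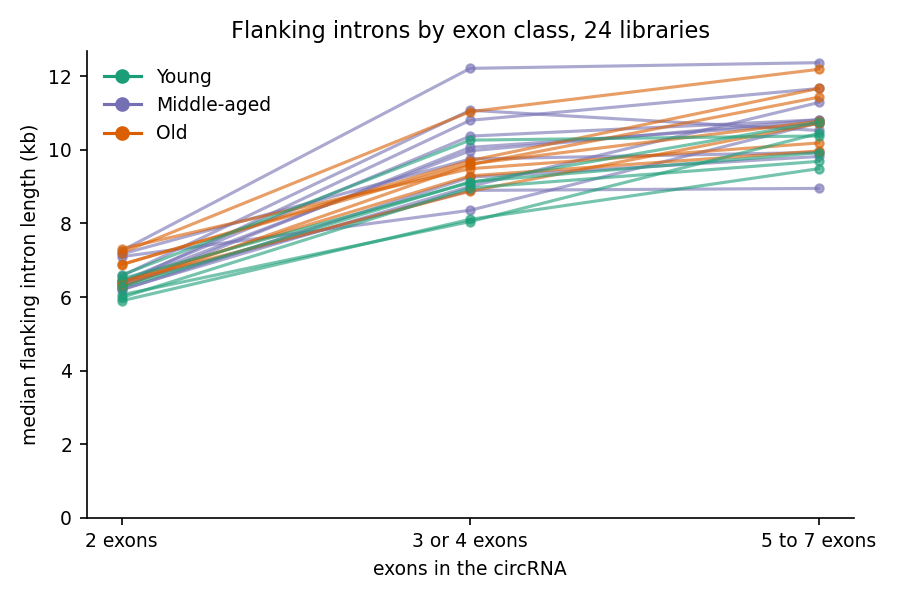
Median length of the flanking introns (kb) of circRNAs with 2, with 3 or 4 and with 5 to 7 exons, 1 line per library, coloured by age group. All 24 lines rise from the first class to the second, with means of 6542 and 9627 nt, and 23 rise further, to a mean of 10637 nt.

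The median exon was shorter in 3- and 4-exon than in 2-exon circRNAs, 118.8 ± 3.64 against 129.2 ± 3.12 nt (SD, n = 24 libraries), in 24 of 24 libraries (adjusted p = 5.3e-05). Against 5- to 7-exon circRNAs, at 119.7 ± 4.72 nt, the adjusted p was 0.134, but the difference was -1.33 nt with an adjusted p of 0.0281 without the 6 libraries with the fewest junction reads, and -5.51 nt with 5.3e-05 when weighted by reads. A listed 3- or 4-exon circRNA had a mean of 2.48 ± 0.630 reads per library, against 2.36 ± 0.544 for 2 exons (higher in 19 of 24 libraries, adjusted p = 0.0181) and 2.39 ± 0.525 for 5 to 7 exons (higher in 14 of 24, adjusted p = 0.227). Summed over the 24 libraries, reads per circRNA had the other order against 2 exons, 11.02 for 3 or 4 exons, 11.77 for 2 exons and 8.65 for 5 to 7 exons. Listing on an Ensembl transcript rather than on one assembled from the library was less frequent than for 2-exon circRNAs, 35.95 ± 5.05% against 38.4 ± 4.23% (adjusted p = 0.0132), and for 5 to 7 exons it was 36.5 ± 5.26% (adjusted p = 0.498). Weighted by reads, the difference from 2 exons was -0.832 percentage points with an adjusted p of 0.485.

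A part of the circles of 3 and 4 exons shared splice sites with one another. The 2873 circRNAs had 2729 distinct junctions. Of these, 413 (15.1%) used an acceptor, the 3′ splice site at the start of the ring, that another of these junctions used, 372 (13.6%) shared the donor at its end, and 717 (26.3%) shared at least 1 of both. Up to 5 junctions used 1 acceptor and up to 3 used 1 donor.

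In 348 pairs the 4-exon circRNA held exactly the exons of a 3-exon circRNA plus 1 more exon, downstream in 183 pairs and upstream in 165. The 3-exon form had more reads in 158 pairs, the 4-exon form in 155 pairs, and both were equal in 35. Among the 130 pairs with at least 20 reads in all, these numbers were 57 and 71 in the first and second place. The counts for both sizes were close, while single pairs were far from even.

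For mmu_circ_010973, moving the donor 1 exon downstream to chr2:189067053 adds a 147-nt exon, and this form had 7 reads against 1128. In the 24 libraries the longer form was at or below 2.94% of the reads of the pair. The pair of mmu_circ_009828 was less uneven. Its 4-exon extension mmu_circ_009830 ends at chr18:72486949, adds a 95-nt exon and had 182 reads in 22 libraries against 873 for the shorter form, which was higher in 24 of 24 libraries. The longer form made up 7.41% to 20.0% of the reads of the pair (median 14.6%) in the Young group. It made up 0% to 37.0% (median 17.4%) in the Middle-aged group and 10.2% to 25% (median 16%) in the Old group, and the ranges of the groups overlapped. In 1 of the Middle-aged libraries at 0%, the junction of the longer form was listed with a 3-exon structure of 263 nt instead, with 9 reads.

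The order was the opposite for mmu_circ_016162 and mmu_circ_009737, whose 4-exon forms stood above both of their 3-exon parts. The 362 reads of mmu_circ_016162 compared with 19 reads for the form without its first exon and 4 reads for the form without its last exon. The 268 reads of mmu_circ_009737 compared with 19 and 7 reads. In every library in which mmu_circ_016162 was listed, 22 in all, it was higher than either part.

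Host regions were built by joining exonic circRNAs of 1 strand whose spans overlap, since transcript names differed between libraries. Of 2025 host regions, 1583 held a single junction of 3 or 4 exons and 28 held at least 5. The richest, on the plus strand of chromosome 18 from 72411714 to 72611187, held 14 such circRNAs from 12 junctions with 1174 reads, of which mmu_circ_009828 had 873. The next, chromosome 6 from 130724321 to 130785373 (minus strand), held 12 circRNAs with 130 reads, and the one with the highest mean level, the 505-nt structure of chr6:130728400-130743416, had 22 reads in 4 libraries, while a 510-nt structure of this junction had 30 reads in 2. The others among the 5 richest, with ties broken by reads, held 8 or 9 circRNAs. They lay on chromosome X from 30377146 to 30612471 (minus strand, 61 reads), on chromosome 9 from 50369530 to 50435842 (minus strand, 406 reads) and on chromosome 5 from 140077381 to 140181652 (plus strand, 298 reads). Those with the highest mean level there were chrX:30560560-30612471 with 19 reads, chr9:50420096-50435842 with 200 reads and mmu_circ_014513 (chr5:140162123-140181652) with 82 reads, all with 4 exons. In the last region a 3-exon ring of 222 nt, chr5:140155343-140170694, had more reads, 128 in 6 libraries, and a mean level of 0.912 per 1000 against 0.930.

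Among the hosts with a symbol, DCAF6, an adaptor of a cullin ubiquitin ligase, had the most circles, 6 with 112 reads. The most abundant of them was mmu_circ_001105 (chr1:197678774-197704439, 341 nt) with 57 reads. The gene RERE, a transcriptional corepressor, had 3 circles with 112 reads, led by mmu_circ_000204 (chr1:11564081-11579520) with 70 reads in 18 libraries. Its median level was 0.764 per 1000 in the Young, 0.376 in the Middle-aged and 0.609 in the Old group, and every group had libraries at 0. The single circle of XRN2, a nuclear 5′-to-3′ exoribonuclease, was mmu_circ_002541 (chr10:54655596-54658608) with 71 reads in 18 libraries. It was listed in 3 of 6 Young, 9 of 11 Middle-aged and 6 of 7 Old libraries, with medians of 0.0803, 0.870 and 1.13 and maxima of 1.36, 2.43 and 3.04. Each group also had libraries without it, so the ranges overlapped. No comparison of age groups passed the threshold for this circle. Its log2 fold change was 1.45 ± 0.76 (SE) in Old vs. Young (edgeR adjusted p = 0.898). In Middle-aged vs. Young it was 0.71 ± 0.74 and in Old vs. Middle-aged 0.75 ± 0.65 (edgeR adjusted p = 0.956 and 0.974).

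Further hosts were GNB1, the beta subunit of a heterotrimeric G protein (3 circles, 63 reads), LARP4, an RNA-binding protein (5 circles, 59 reads), EEA1, which tethers early endosomes (2 circles, 42 reads), CCT3, a chaperonin subunit (3 circles, 36 reads), and DNM1L, the GTPase of mitochondrial fission (3 circles, 34 reads). Of the genes listed for the sarcomere, MYBPC1, slow myosin-binding protein C, was among the hosts with a symbol, with 1 circle of 2 reads. With so few circRNAs named, these counts say nothing of which genes lack such circles.

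The exons inside a ring were not read from the junction itself. Each library listed exactly 1 exon structure for a junction, taken from the transcripts assembled for that library, and structures differed between libraries for 485 of the 2873 circRNAs (16.9%). Of the 2873, 2388 held every read of their junction and 213 held under 50%. On 63 junctions both a 3-exon and a 4-exon structure were kept. Of 162 pairs of structures on a common junction, 84 had equal exon counts, and 45 of these differed by at most 10 nt.

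The 3 such junctions with the most reads in structures of 3 or 4 exons were as follows. On chr17:20763128-20771180 (minus strand) mmu_circ_008966, with exons of 169, 78 and 116 nt, was listed in 22 libraries with 403 reads. Middle-aged 3 listed the junction with an added exon of 88 nt and 20 reads. On chr6:75664580-75683702 (minus strand) 22 libraries gave the 4 exons of mmu_circ_016162 and Young 6 gave a ring without the 93-nt exon, with 7 reads. The junction chr9:50420096-50435842 (minus strand) was divided most evenly, with 200 reads in 5 libraries for a 4-exon ring of 406 nt and 134 reads in 4 libraries for a 3-exon ring of 222 nt, among 407 reads and 4 structures. In the first 2 cases the second structure came from 1 library, and in the last from several.

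Small shifts of a splice site had the same effect on a count. The only library without mmu_circ_015458 was Middle-aged 4, and the junction was listed there with a ring of 280 nt in place of 285 nt, with 9 reads. Summed over both structures, the junction was in all 24 libraries with 544 reads.

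The 2 deeper libraries, labelled with the ages of Young 1 and Old 2, gave a look at which of the rare circRNAs return. They held 60704 and 35205 junction reads and listed 1641 (57.1%) and 1288 (44.8%) of the 2873 circRNAs, and 1963 (68.3%, 95% Wilson interval 66.6% to 70.0%) in either. Of circRNAs with exactly 2 reads in the 24 libraries 49.0% (45.8% to 52.1%) were found in either library, of those with 3 to 4 reads 66.7%, with 5 to 9 reads 84.9%, with 10 to 19 reads 86.8% and with 20 or more 87.8% (83.5% to 91.1%). By junction alone, 96.9% (94.1% to 98.3%) of the last class were found. Of the 35 circRNAs with 20 or more reads that neither library listed, 26 had their junction listed there with another structure.

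**Figure D4:**
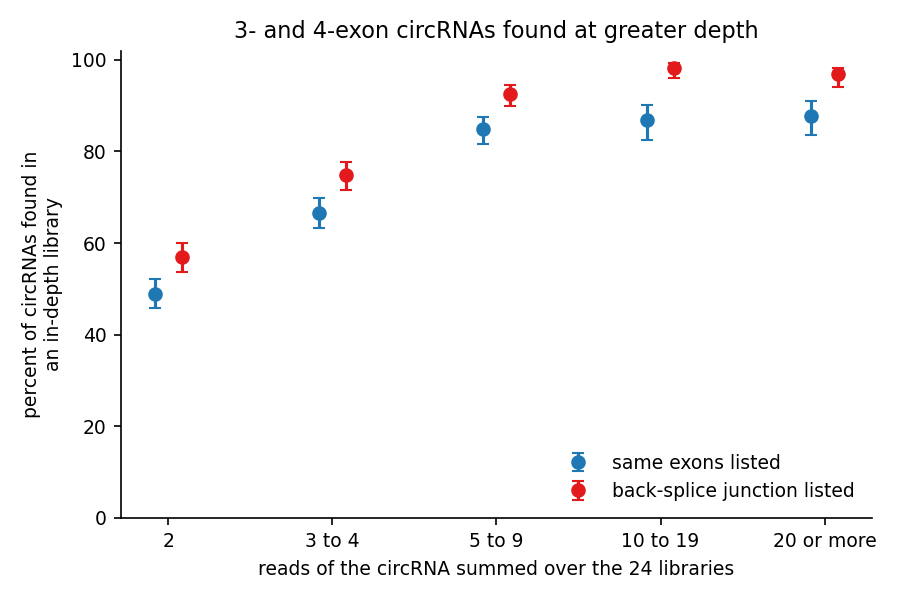
Percent of 3- and 4-exon circRNAs found in either of the 2 in-depth libraries, by their reads summed over the 24 libraries, with 95% Wilson intervals, counting the same exons (blue) or the junction alone (red). The blue points rise from 49.0% at 2 reads to 87.8% at 20 or more, and the red points from 56.9% to 96.9%.

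Single libraries were also set against the deeper ones. Of 748 circRNAs listed in Young 1, 571 (76.3%, 73.2% to 79.2%) were in the in-depth library of age 0.005 years and 442 (59.1%, 55.5% to 62.6%) in that of age 40.1 years. Of 472 listed in Old 2, 347 (73.5%, 69.4% to 77.3%) were in the in-depth library of age 40.1 years and 352 (74.6%, 70.5% to 78.3%) in the other, which held more reads. Depth and age differ together between the 2 in-depth libraries and cannot be told apart.

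The study sampled 3 age groups to ask whether circRNAs of muscle change with age. As a class, the 3- and 4-exon circRNAs made up a similar share of junction reads at each age. The share was 29.2% to 34.5% with a median of 31.8% in the Young group, 22.5% to 35.0% with a median of 31.1% in the Middle-aged group, and 24.7% to 33.5% with a median of 30.9% in the Old group. The group means were 32.0 ± 1.99% (SD, n = 6), 30.4 ± 3.35% (SD, n = 11) and 30.5 ± 2.75% (SD, n = 7). The ranges overlapped, and the means differed by -1.50 (Old minus Young), -1.64 (Middle-aged minus Young) and 0.139 (Old minus Middle-aged) percentage points. Exact permutation tests of the means, two-sided, gave adjusted p = 0.818, 0.818 and 0.978 (Benjamini-Hochberg over 9 tests).

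Within the Young group the 3 monkeys under 1 year had 33.6 ± 1.14% and the 3 older ones 30.4 ± 1.08% (SD, n = 3 each). Without the 3 youngest, Old minus Young was 0.0693 percentage points.

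The share moved with depth. Over the 24 libraries it rose with the log10 of the junction reads (Pearson r = 0.69, permutation p = 0.0001, and Spearman rho = 0.65, permutation p = 0.00085), and r was 0.70 without the 2 libraries farthest from the median depth. Adjusted over the 10 tests of 5 measures, these p-values were 0.0010 and 0.0021. With no minimum of reads r was 0.63 and rho 0.48, and as a share of exonic reads r was 0.63 and rho 0.58. The 6 libraries with the fewest junction reads were all Middle-aged or Old. Without them, Old minus Young was -0.427 and Middle-aged minus Young -0.463 percentage points (exact permutation tests, adjusted p = 0.825 for both). Old minus Middle-aged was then 0.0352 percentage points. The part of depth in the differences between age groups was not tested. The plot of share against depth places the 2 lowest libraries, at 22.5% and 24.7%, at 822 and 1317 junction reads.

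**Figure D5:**
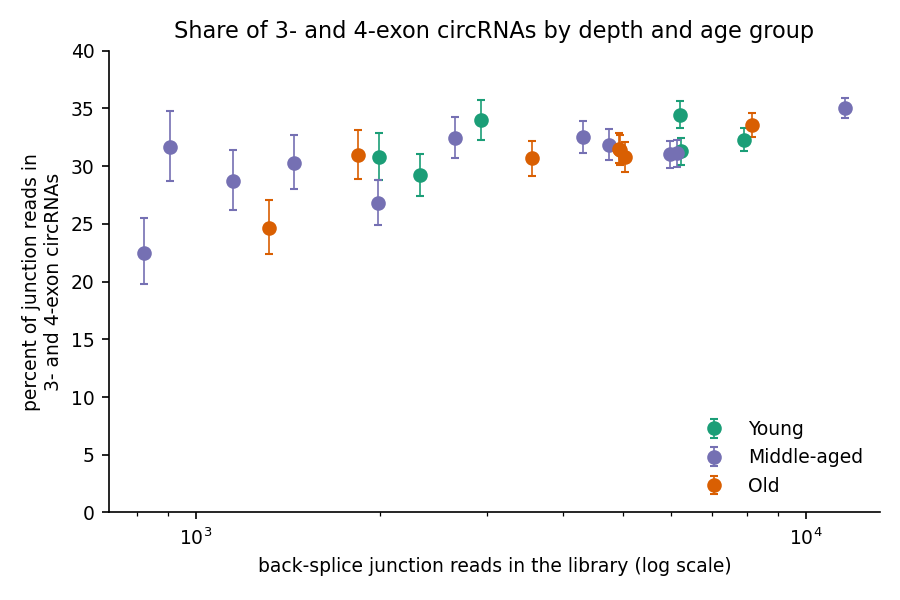
Percent of a library's junction reads in 3- and 4-exon circRNAs against its junction reads (log scale), 1 point per library, coloured by age group, with 95% Wilson intervals. Most libraries lie between 27% and 35% in every age group, and the lowest points, 22.5% and 24.7%, are shallow libraries.

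The balance between 3 and 4 exons did not pass a test of difference between the age groups. Of these reads, 4-exon circRNAs took 36.6 ± 2.18% in Young (SD, n = 6), 37.9 ± 4.94% in Middle-aged (SD, n = 11) and 35.7 ± 2.44% in Old monkeys (SD, n = 7). The median was 35.9%, 37.9% and 36.4%, and the full range, 24.9% to 42.9%, was that of the Middle-aged group. The read-weighted mean length was 439 ± 29.8, 430 ± 29.6 and 429 ± 43.2 nt in the same order. The differences in length were -10.1 nt (Old minus Young) and -0.358 nt (Old minus Middle-aged), and without the 6 libraries of fewest junction reads they were -30.5 and -17.3 nt. Without the 3 youngest monkeys the first was -26.2 nt, and Middle-aged minus Young went from -9.71 to -25.8 nt. For the 4-exon share, Old minus Middle-aged moved from -2.22 to -4.03 percentage points without the same 6 libraries. None of these passed the threshold. In exact permutation tests, the adjusted p was 0.818 or 0.978 for each of these 6 comparisons over all 24 libraries. The mean length fell with depth in rank (rho = -0.50, permutation p = 0.0129, adjusted 0.0215), while r was -0.40 (permutation p = 0.0535, adjusted 0.0668). Without the 2 libraries farthest from the median depth, r for the mean length was -0.69.

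For single circRNAs, 218 of any type reached 2 reads in 12 or more libraries, and 77 of these had 3 or 4 exons. None of the 77 passed an adjusted p of 0.05 in any comparison (edgeR quasi-likelihood test, Benjamini-Hochberg over the 218). Over the 218, the share called was 0% for Old vs. Young, 0% for Middle-aged vs. Young and 0.459% for Old vs. Middle-aged, where 1 circRNA passed that has neither 3 nor 4 exons. At an unadjusted p under 0.05 there were 2, 3 and 2 of the 77, against 12, 15 and 11 of the 218. DESeq2 called 0 of the 77 in each comparison as well, and 0, 1 and 1 of the 218. The log2 fold change had a median of -0.07, -0.01 and -0.04 over the 77, beside -0.00061, 0.04 and -0.10 over the 218, with a median standard error of 0.69, 0.64 and 0.63. Other scalings moved the median over the 218 by over 0.1, to 0.12 with TMM for Old vs. Middle-aged and to -0.12 for Middle-aged vs. Young.

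The smallest p among the 77 belonged in 2 comparisons to mmu_circ_008860 at chr17:11887392-11897424 (minus strand), a 438-nt ring of exons of 125, 89, 77 and 147 nt. In the Young group it was listed in 2 of 6 libraries, with a level of 0 to 1.00 per 1000 and a median of 0. In the Middle-aged group it was listed in 7 of 11, with 0 to 4.65 and a median of 2.51, and in the Old group in 5 of 7, with 0 to 3.17 and a median of 1.69. Libraries without it were in every group, and the ranges overlapped. The log2 fold change was 2.63 ± 0.90 (SE) for Middle-aged against Young (edgeR adjusted p = 0.510) and 2.45 ± 0.94 for Old against Young (edgeR adjusted p = 0.667). Summing the structures of the junction gave 2.79 with an edgeR adjusted p of 0.0727 in the first comparison.

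The other circRNAs with the smallest p for Middle-aged against Young were mmu_circ_007501 and mmu_circ_002164. The first, at chr15:50215199-50243797 with 4 exons, was listed in 6 of 6 Young libraries at 0.429 to 1.61 per 1000 (median 1.13), in 4 of 11 Middle-aged libraries at up to 1.14 and in 4 of 7 Old libraries at up to 1.02. Its log2 fold change was -1.66 ± 0.67 (edgeR adjusted p = 0.510). The other, at chr1:98173778-98183127 with 4 exons, had a median of 1.13 in the Young and 2.12 in the Middle-aged group, and its log2 fold change was 1.21 ± 0.58 (edgeR adjusted p = 0.688). Neither in-depth library listed mmu_circ_007501.

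For Old against Young, mmu_circ_001364 (chr1:225997760-226004691, 3 exons) had a log2 fold change of 2.14 ± 0.92 (edgeR adjusted p = 0.706). It was listed in 2 of 6 Young libraries at up to 0.322 per 1000 and in 4 of 7 Old libraries at up to 1.83. The log2 fold change was 4.52 without the 3 youngest monkeys and 1.65 with the structures of the junction summed (edgeR adjusted p = 0.454 and 0.878). For mmu_circ_004044 (chr12:11444150-11447805, 3 exons) the log2 fold change was -1.38 ± 0.70 (edgeR adjusted p = 0.898), with medians of 1.41 in the Young and 0.406 in the Old group.

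For Old against Middle-aged, mmu_circ_013732 (chr4:17571701-17578916, 3 exons) had a log2 fold change of 1.09 ± 0.52, mmu_circ_009078 (chr17:39523708-39558770, 4 exons) -1.72 ± 0.82 and mmu_circ_011105 (chr2:45290724-45308296, 3 exons) -1.21 ± 0.61 (edgeR adjusted p = 0.736 for each). With the structures of the junction summed, mmu_circ_009078 had -0.89 (edgeR adjusted p = 0.877). For mmu_circ_013732, all 7 Old libraries were at 0.396 to 5.32 per 1000 (median 1.96), against a median of 0.870 and a maximum of 1.84 in the Middle-aged group. Its 2 ranges overlapped, as did those of the other circRNAs.

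The 6 circRNAs of 3 or 4 exons that the study singled out by name included the 3 most abundant with 3 exons. Old against Young, the log2 fold change was 0.08 ± 0.46 for mmu_circ_010973, 0.28 ± 0.49 for mmu_circ_009828 and 0.33 ± 0.55 for mmu_circ_015458 (edgeR adjusted p = 0.995, 0.984 and 0.984). The level of mmu_circ_015458 was 2.53 to 5.64 (median 4.90) in the Young, 0 to 13.4 (median 5.06) in the Middle-aged and 3.797 to 8.13 (median 4.91) in the Old group.

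The other 3 had 4 exons and were rarer. The study reported that these declined with advancing age, by sequencing and by quantitative PCR. In the counts used here, none of them passed the threshold in any comparison of age groups. The PCR levels were not part of these counts and were not tested. For mmu_circ_017332 (chr7:45804334-45809341, minus strand, 462 nt, 58 reads) the median was 0.161 in the Young, 0.502 in the Middle-aged and 0.614 in the Old group, and the maxima were 1.00, 1.22 and 1.83. Its log2 fold change was 1.08 ± 0.78 for Old against Young (edgeR adjusted p = 0.898). For mmu_circ_014269 (chr4:95400563-95404880, minus strand, 375 nt, 65 reads) the medians were 0.591, 0.421 and 0.542, with a log2 fold change of 0.04 ± 0.67 (edgeR adjusted p = 0.995). For mmu_circ_006895 (chr14:84328522-84334852, minus strand, 451 nt, 63 reads) the medians were 0.940, 0 and 0.737, with -0.17 ± 0.69 (Old vs. Young) and -1.14 ± 0.67 (Middle-aged vs. Young) on the log2 scale (edgeR adjusted p = 0.995 and 0.722). Each of the 3 had libraries at 0 in every age group.

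A lower minimum of 10 reads in total admitted 1601 circRNAs, 582 of them with 3 or 4 exons. For Middle-aged against Young 2 of the 582 then passed, where the share called over the 1601 was 0.375%. An unadjusted edgeR p under 0.05 was found for 15.5% of the 582 and 14.9% of the 1601. For the same comparison it was 3.90% of the 77 and 6.88% of the 218 above. The check on simulated counts covered the 218 only, so whether such p-values hold at the lower minimum was not tested. The first was chr5:95497725-95510306 (plus strand) with exons of 46, 79, 41 and 99 nt, which had 0 reads in 6 Young libraries, 45 reads in 7 of 11 Middle-aged libraries and 16 reads in 4 of 7 Old libraries (edgeR adjusted p = 0.0158). The junction was also listed with 38 nt in place of the 41-nt exon, 3 nt shorter, with 11 reads in 1 Young library, 0 in the Middle-aged and 8 in 1 Old library. Over both structures 1 Young, 7 Middle-aged and 5 Old libraries had the junction. The second was chr3:109834429-109853200 (plus strand, exons of 98, 93 and 93 nt), with 15 reads in 2 Young libraries, 0 in the Middle-aged and 4 in 1 Old library (edgeR log2 fold change -4.05 ± 1.05, adjusted p = 0.0420). This one rested on reads from 3 libraries, and the first on 11.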

How the data were processed

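The authors removed adapters, aligned reads to rheMac2 with TopHat2 2.0.14 and Bowtie2 2.2.4, searched the reads left over for fusions, assembled transcripts with Cufflinks 2.2.1 and called circRNAs with CIRCexplorer. They deposited raw counts, not normalized, of the reads across each back-splice junction in each library. A circRNA not listed in a library was given 0 reads. The per-sample factors of the study were not used, and levels were divided by total junction reads instead. Coordinates are counted from 1.

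Age groups were compared by the quasi-likelihood test of edgeR 4.0.16 under R 4.3.3, with DESeq2 1.42.0, and with exact permutation tests. The edgeR test was robust, with 3 groups in 1 fit and total junction reads as library size. It was checked on simulated counts for the 218 circRNAs of the main filter. Each library is 1 monkey. Flanking introns were averaged over both sides.

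The circRNAs named were the 10 most abundant, those the study named, the 3 smallest p per comparison where none passed, the circRNA of highest mean level in each of the 5 host regions with most members, the extremes of length and span, those in all 24 libraries and the 3 junctions with both exon counts and most reads in such structures. This set and its lists were chosen with earlier results of these data known. Circles outside these rules (the members of pairs, of hosts with a symbol, and the 2 called with the lower minimum) were named after their values were seen. Host symbols came from Ensembl transcript and gene identifiers that a supplement pairs and from a table of gene names, and a further listed host gene is not reported here. Host regions stood in for host transcripts, and no sequence of this genome build was used here.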

Additional observations from a re-analysis of the deposited data

Results flagged for a closer look

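In Young and Old, 63 groups of libraries were tested for a value far from the rest, and 11 were singled out. The Middle-aged group has more than 10 libraries and was left out. Chance gives about 1 in 20, but this rate does not hold for circRNAs listed in a single library of their group. With the rest at 0, such a library is singled out at any count, even 1 read. Most of the 11 are of this kind, so their number is no measure of an excess.

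Old 7, with 1317 junction reads, had 24.7% of them in 3- and 4-exon circRNAs, and the nearest Old library had 30.7%. The same library was apart for 3 rare circRNAs, at 2.28 per 1000 junction reads for chr6:130728400-130743416 with 4 exons (3 reads), 0.759 for chr6:136021407-136021786 (1 read) and 1.52 for chr13:73767228-73775113 (2 reads).

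Young 2 stood apart for mmu_circ_014269, with 2.51 per 1000 from 5 reads next to 0.858 in the nearest Young library, and for chr13:73767228-73775113, with 0.501 from 1 read. Old 5 had 6.73 per 1000 (34 reads) of the 3-exon structure of chr9:50420096-50435842, which no other Old library listed, and 0.198 (1 read) of chr6:104354939-104702816. Young 5 had 1.61 per 1000 (10 reads) of chr6:130728400-130743416. Young 6 had 2.39 (7 reads) of the 3-exon structure of chr6:75664580-75683702, and Old 2 had 0.563 (2 reads) of chr11:27956518-27958302. The other libraries of these groups were at 0 for the last 5.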

How the results depend on the processing

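Of 94 values recomputed under an alternative for the comparisons, 83 kept their direction and their side of the threshold, as did 82 of 84 log2 fold changes of named circRNAs. For the share of junction reads, Old minus Young turned to 0.0693 percentage points without the 3 young monkeys under 1 year, and Old minus Middle-aged to -0.883 with exonic reads as the denominator. The share of 4-exon reads, Old minus Young, turned to 0.339 without those 3 monkeys. Mean length, Old minus Middle-aged, turned to 0.806 nt with a minimum of 1 read and to 0.414 nt when a junction's reads went to its main structure. None of these passed the threshold before or after. Against 5- to 7-exon circRNAs, reads per circRNA turned to -0.0179 with a minimum of 3 reads, the flanking introns to 236.5 nt when weighted by reads, and the difference in exon length, now past the threshold, was -1.33 nt without the 6 libraries with the fewest reads and -5.51 nt when weighted by reads. Against 2-exon circRNAs, weighting by reads left -0.832 percentage points on Ensembl transcripts, no longer past the threshold. With at least 10 reads in total, 2 of the 582 circRNAs tested were called for Middle-aged against Young, and 0 under the other alternatives. Without the 3 youngest monkeys the log2 fold change for Old against Young turned to -0.89 for mmu_circ_014269 and to 0.33 for mmu_circ_006895. The causes were not tested.

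A median of 3 reads per circRNA limits what single circRNAs can show, and the exon structure of a count depends on the transcripts assembled in its library. No paired analysis of the age groups was possible because each monkey belongs to 1 age group and its replicate number only names it.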

Other observations

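Of the 394 circRNAs with 3 or 4 exons listed in a single library, 17 had at least 10 reads there. For 14 of the 17 the junction was listed in other libraries with another structure, and for 3 it was not. The most abundant was chrX:23329546-23337726 (plus strand, 3 exons, 206 nt), with 81 reads in Middle-aged 6, the library with the most junction reads, and none in the other 23 libraries of the age groups. The next of the 3 were chr11:21496388-21505664 with 17 reads in Young 4 and chr12:42311993-42316128 with 14 reads in Middle-aged 5.

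The junction chr18:14771495-14785401 (plus strand) was in all 24 libraries with 829 reads and 4 structures. A 4-exon ring of 574 nt had 218 of these reads in 3 libraries, a 3-exon ring of 444 nt had 35 in Old 1 and a 4-exon ring of 515 nt had 15 in Young 6. Its spread over libraries was 271% of the mean for the 574-nt ring, the largest among the 44 circRNAs with at least 100 reads, whose median was 78.9%. For the 26 of these 44 with 1 structure on their junction the median was 67.8%, and for the 18 with several it was 85.2%. Reads counted at random at these depths would alone give a median of 51.0% over the 44. The 26 and the 18 were not matched on reads.

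By age group, 913 circRNAs were listed in all 3 groups, 1219 in 2 groups and 741 in 1 group. A circRNA with exactly 2 reads, as 972 had, cannot be listed in all 3 groups. The groups also differ in size, and the same counts over all circRNAs are not given here. These numbers are therefore no measure of a tie to an age group. Of the 287 with 20 or more reads, 254 were listed in all 3. The plus strand held 1458 and the minus strand 1415.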
